A study of Mus musculus with 12 samples.

Results

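The 45 gene symbols that begin with Nduf name nuclear-encoded subunits of respiratory complex I and factors that assemble it. The rule takes them by name from the 12212 symbols measured in germinal center B cells and uses no measured value. All 45 were among the 12081 genes tested after a filter on low counts. By known roles, 7 encode core subunits, 29 encode supernumerary subunits and 8 encode assembly factors (Ndufaf1 to Ndufaf8). Ndufa4 was kept apart because, despite its name, its protein is a subunit of cytochrome c oxidase.

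The cells came from spleens of NZBWF1/J mice, the F1 offspring of NZB and NZW parents and a spontaneous model of lupus. B cells were enriched by negative selection and germinal center dark zone and light zone cells were sorted by flow cytometry, with 1000 cells per library. Both zones were sampled in treated and in control mice, which gives 4 groups of 3 libraries. Treated mice of this strain received 6 doses of 200 ug CTLA4-Ig, which blocks costimulation of T cells through CD28, together with 6 doses of 250 ug anti-CD40L, which blocks the CD40 signal from T cells to B cells. Dosing ran for 2 weeks from 18 weeks of age, an age that the labels give for the treated mice only. Controls were untreated NZBWF1/J mice, and the labels name no transgene or targeted allele in any group. The labels do not say which mouse a replicate number stands for, so p-values measure only the spread between these libraries, which may be technical.

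Complex I is the entry point of the mitochondrial respiratory chain. It takes electrons from NADH through a flavin and a chain of iron-sulfur clusters, passes them to ubiquinone and pumps protons across the inner membrane. The nuclear-encoded core subunits carry the flavin and the clusters or form the quinone site, and the supernumerary subunits surround and stabilise the core. Assembly factors join the modules but are not part of the finished enzyme. In the dark zone of a germinal center B cells proliferate and acquire antibody mutations, in the light zone they compete for T cell help, and germinal center B cells are known to rely on oxidative phosphorylation.

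Library totals ran from 16032746 to 26837714 counts. Of the treated libraries, replicates 1 and 2 of the dark zone and replicate 2 of the light zone stood apart from the other 9 libraries. On the first principal component of 12036 genes, computed without the complex I genes and holding 30.2% of the variance, they lay at 146.3 to 165.4 and the others at -102.8 to 20.55. The 3 libraries had counts for 12188 to 12195 symbols, against 11384 to 11960 in the others, and TMM normalization factors of 1.35 to 1.44 against 0.815 to 0.988. All 10 germinal center B cell markers were measured, with summed levels of 6850 to 11400 CPM (library-size-scaled counts, by TMM) in the 9 libraries and 6610 to 7310 in the 3. Of these markers, Fas (40.7 to 46.6 CPM against 137.6 to 259.9), Gcsam and Cd79a were below all 9 libraries in the 3. S1pr2 (299 to 328 against 68.5 to 169) was above them and 6 overlapped. Of all tested genes 16.7% were below in this way and 13.7% above. The part of these marker differences in the complex I results was not tested. The light zone markers Cd83 and Cd86 summed to 83.1 to 322 CPM in dark zone and 594 to 996 CPM in light zone libraries, without overlap, while the dark zone marker Cxcr4 overlapped (16.4 to 163 against 19.9 to 42.6 CPM). The comparisons between groups are therefore given with and without the 3 libraries. They are all treated libraries, so without them 1 dark zone treated and 2 light zone treated libraries remain.

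DNA motifs often found in promoters of nuclear respiratory genes were looked for on both strands of the RefSeq promoter windows (GRCm38.p6, 250 bases before to 50 after the gene start), which were matched for 40 of the 45 genes. GCGCATGCG, the motif of NRF1 without its last base, stood in the windows of 4 of the 40 genes (10%: Ndufa11, Ndufa8, Ndufaf4 and Ndufaf5). It stood in 4.23% of the 9492 measured genes with a window and in 1.95% of all 27025 genes with a window. CCGGAAG, the motif of ETS factors such as GABPA, stood in 6 of the 40 (15%: Ndufaf1, Ndufaf8, Ndufb6, Ndufb7, Ndufs3 and Ndufs8). It stood in 20.7% of measured genes with a window and in 9.93% of all genes with a window. No gene held both motifs, so no match of one overlapped a match of the other. A match describes letters and not a bound site. A link of the motifs with the levels in the 3 libraries was not tested. As examples of both motifs, the 150 bases before the gene start are shown, 5' to 3' on the gene's strand with matches in capitals. They are from the supernumerary subunit gene Ndufa11 (chr17:56717612-56717761, plus strand) and the assembly factor genes Ndufaf4 (chr4:24897933-24898082, plus strand) and Ndufaf1 (chr2:119662835-119662984, minus strand).
Ndufa11: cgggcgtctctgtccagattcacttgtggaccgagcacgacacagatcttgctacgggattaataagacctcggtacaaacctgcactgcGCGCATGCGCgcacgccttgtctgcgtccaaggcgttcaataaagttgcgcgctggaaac
Ndufaf4: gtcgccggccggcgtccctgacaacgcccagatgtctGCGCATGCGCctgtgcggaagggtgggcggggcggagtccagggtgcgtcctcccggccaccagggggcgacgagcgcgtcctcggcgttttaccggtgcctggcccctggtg
Ndufaf1: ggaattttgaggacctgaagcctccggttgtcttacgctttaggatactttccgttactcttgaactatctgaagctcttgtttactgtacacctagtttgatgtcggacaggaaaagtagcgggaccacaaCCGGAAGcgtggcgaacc
In Ndufa11 and Ndufaf4 the match reads as a palindrome, so both strands match there, shifted by a base.

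In the other 9 libraries complex I genes were expressed at very different but mostly steady levels. Per kilobase of transcript, the supernumerary subunits had a median mean level of 707.5 CPM per kb (range 69.8 to 2918), the core subunits 216 (18.9 to 941) and the assembly factors 50.9 (10.3 to 187). The highest were Ndufa1 and Ndufa4 at 2918 and 2884 CPM per kb, Ndufa11 at 1964, Ndufa2 at 1479 and Ndufc2 at 1339, and Ndufa1 and Ndufa4 did not differ beyond their spread over libraries. The assembly factor Ndufaf7 was lowest, at 10.3 CPM per kb, just under Ndufaf5 at 15.9 and the core subunit Ndufs1 at 18.9. The highest of the 9 libraries was less than 2-fold above the lowest for 26 of the 45 genes, among them 21 of the 29 supernumerary subunits but 1 of the 8 assembly factors (Ndufaf3). The SD of log2 CPM over these 9 libraries, which pool zones and treatments, had a median of 0.29 and was smallest, at 0.13, for Ndufa2.

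**Figure D1:**
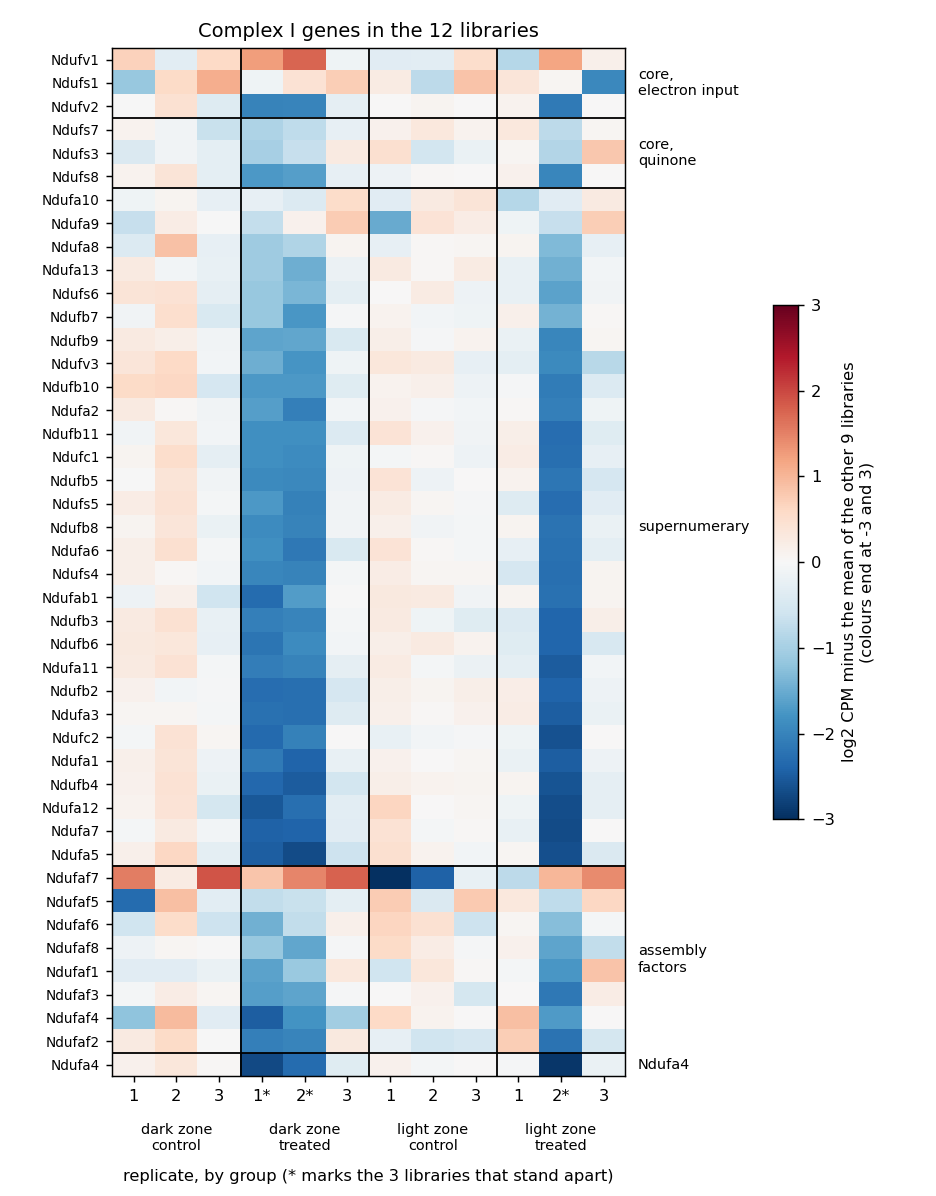
Log2 CPM of 44 complex I genes (rows, by role) in each of the 12 libraries (columns, by group and replicate), relative to the gene's mean over the other 9 libraries. The starred columns, the 3 libraries that stand apart, are blue, that is lower, for most rows, while Ndufv1 and Ndufaf7 are red, that is higher, in all 3.

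The 3 libraries that stood apart had less of most complex I transcripts than any other library. Of the 45 genes, 38 (84.4%) were below all other 9 libraries in each of the 3, 2 were above them, Ndufv1 among them, and 5 overlapped (Ndufa10, Ndufa9, Ndufaf5, Ndufaf7 and Ndufs1). Of all tested genes, 16.7% were below in this way and 13.7% above. Across the 45 genes the median log2 difference of the 3 libraries from the 9 was -1.98, a 3.96-fold lower level, while over all tested genes it was 0.50. Ndufa4 was furthest down, 6.25-fold. Against the other 3 treated libraries alone, 39 genes were below and 2 above, where 24.4% and 27.6% of all tested genes were. With library totals as the only scaling the median was -1.34 (1.13 over all tested genes), 30 genes were below and the same 2 above, and Ndufa10 and Ndufa9 turned from lower to higher. These are descriptions without a test, since the 3 libraries are no group of the design. In bulk samples, fewer cells of a type and less RNA per cell cannot be told apart.

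The summed level of the 45 genes was 18600 to 26450 CPM in controls of the dark zone, 20580 to 23540 in those of the light zone and 18200 to 20170 in the 3 treated libraries that did not stand apart. In the 3 libraries it was 6206, 6251 and 5182 CPM. As a share of unscaled counts the 45 genes made up 1.70 to 2.16% of the 9 libraries and 0.747 to 0.88% of the 3. The core subunits made up 8.78 to 11.5% of the complex I counts in the 9 libraries and 16.5 to 18.8% in the 3, and Ndufv1 alone 0.162 to 0.483% and 2.28 to 3.18%. The composition of the complex I transcripts thus differed along with their total, and none of these shares overlapped.

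**Figure D2:**
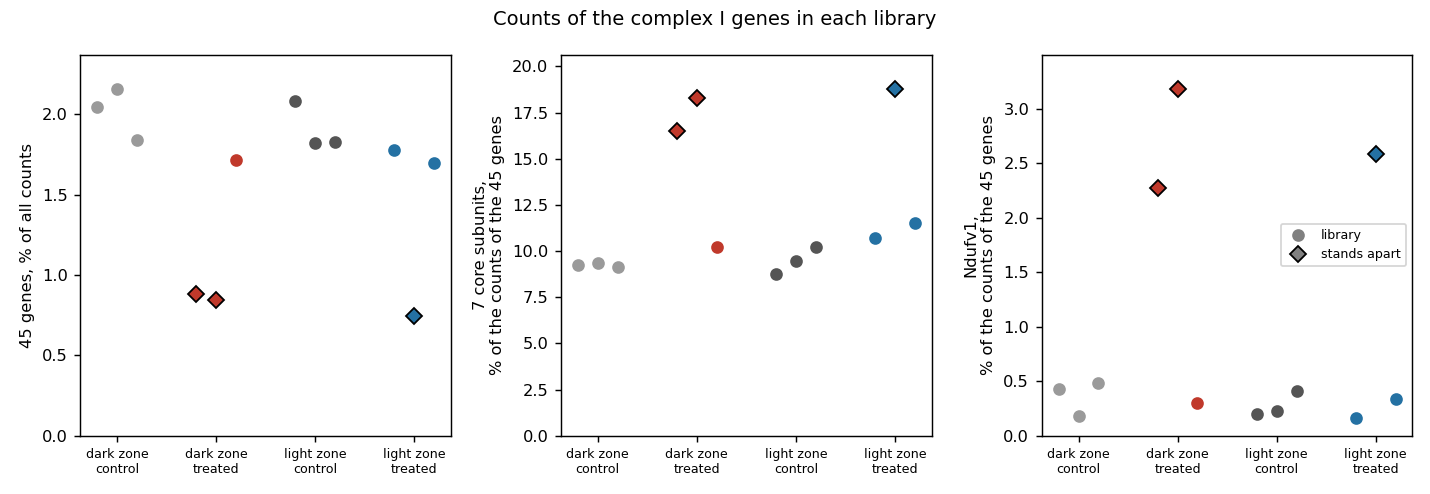
Share of all counts taken by the 45 genes, share of their counts taken by the 7 core subunits, and share taken by Ndufv1, each point a library and each panel starting at 0. The 3 libraries that stand apart (diamonds) lie at 0.747 to 0.88%, 16.5 to 18.8% and 2.28 to 3.18%, outside the other 9 in each panel.

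The core subunits did not all go one way in the 3 libraries. The electron input module takes up electrons from NADH, and its subunit Ndufv1 binds NADH and the flavin. In replicate order 1 to 3, Ndufv1 was at 95.5, 47.3 and 89.9 CPM in dark zone controls and 141, 199 and 54.1 after treatment, and at 46.9, 47.8 and 84.7 in light zone controls and 32.6, 134 and 65.4 after treatment. The 3 libraries that stood apart were the highest of the 12, and the other treated libraries lay within or below the controls. Ndufv2, an iron-sulfur partner of Ndufv1 in the same module, had 568, 779.5 and 434 CPM in control and 143, 144 and 477 in treated dark zone libraries, against 581, 607 and 573 in control and 617, 132 and 573 in treated light zone libraries. It went the other way, with the same 3 libraries lowest by a wide margin. Ndufs1, the largest iron-sulfur subunit, was at 19.0, 61.8 and 88.1 CPM in dark zone controls and 38.1, 56.5 and 69.7 after treatment, and at 49.2, 24.2 and 75.6 in light zone controls and 53.2, 43.0 and 10.9 after treatment. Its groups overlapped throughout and the 3 libraries lay inside the range of the others.

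The quinone module hands electrons to ubiquinone. Ndufs3, a structural subunit of this module, had 159, 200.3 and 176 CPM in control and 109, 135 and 259.5 in treated dark zone libraries, against 302, 148 and 189 in control and 224, 118 and 379.9 in treated light zone libraries. Ndufs7, which carries an iron-sulfur cluster next to the quinone, was at 284, 243 and 165 CPM in dark zone controls and 138, 154 and 222 after treatment, and at 289.6, 326 and 283 in light zone controls and 326, 153 and 276 after treatment. Both were lowest in the 3 libraries, by less than a log2 unit (-0.85 and -0.83). Ndufs8, another cluster subunit of this module, had 889, 1068 and 668 CPM in control and 249, 263 and 697 in treated dark zone libraries, against 738, 848 and 831 in control and 906, 210.3 and 823 in treated light zone libraries. It differed by -1.78 on the log2 scale in the 3 libraries. Its neighbour Ndufv1, 94609 bases away on chromosome 19 (mm10, Ndufs8 at 3908863 to 3912774 and Ndufv1 at 4007384 to 4012806), was higher there by 1.39.

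**Figure D3:**
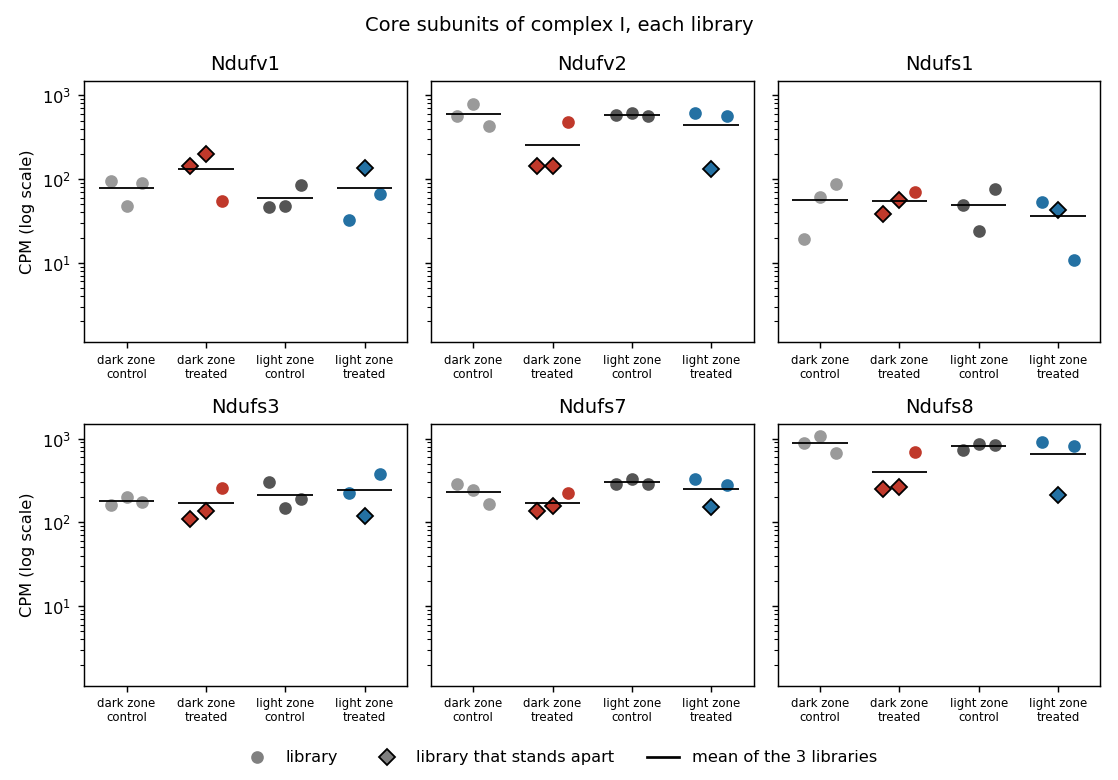
CPM of 6 core subunits in each library on a log axis, by group, with lines at the group means. Diamonds, the 3 libraries that stand apart, are highest for Ndufv1 (134 to 199 CPM), lowest for Ndufv2, Ndufs3, Ndufs7 and Ndufs8, and inside the range for Ndufs1.

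Most supernumerary subunits shared the lower level of the 3 libraries. All 29 had a lower mean in the 3 libraries, 27 of them without overlap, with a median log2 difference of -2.04. Ndufa1, a small membrane subunit, was at 1341, 1581 and 1086 CPM in dark zone controls and 277, 229.5 and 1047 after treatment, and at 1332, 1224 and 1258 in light zone controls and 1050, 220.0 and 1086 after treatment. Ndufa11, another membrane subunit, had 1265, 1432 and 1021 CPM in control and 249, 263 and 880.2 in treated dark zone libraries, against 1244, 1008 and 930.5 in control and 862, 186 and 992 in treated light zone libraries. In both genes the 3 libraries held about the same low level and the 9 others stayed within a narrow band. Ndufa2, in the matrix arm, was at 1010, 858 and 779 CPM in dark zone controls and 270.0, 203 and 793 after treatment, and at 925, 825 and 793 in light zone controls and 859, 204 and 771 after treatment. Ndufc2, in the membrane arm, had 873, 1217 and 952 CPM in control and 179, 224 and 917 in treated dark zone libraries, against 773, 864 and 885 in control and 832, 148 and 920.2 in treated light zone libraries. The same separation was seen in Ndufa4, the cytochrome c oxidase subunit. Ndufa4 was at 1914, 2215 and 1777 CPM in dark zone controls and 267, 349.7 and 1361 after treatment, and at 1903, 1686 and 1762 in light zone controls and 1690, 232 and 1527 after treatment. Ndufa9 and Ndufa10 were the 2 that overlapped. Ndufa9, a subunit next to the quinone site, had 107, 202 and 172 CPM in control and 106, 191 and 295 in treated dark zone libraries, against 60.6, 232 and 201 in control and 159, 107 and 289.8 in treated light zone libraries. Its lowest level was in light zone control replicate 1, not in the 3 libraries.

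Among the 8 assembly factors, 6 were below the other 9 libraries in all 3 and 2 overlapped (Ndufaf5 and Ndufaf7), with a median log2 difference of -1.46. Furthest down were Ndufaf2, a relative of the subunit Ndufa12 (9.08 to 10.6 CPM in the 3 libraries against 27.7 to 70.2 in the 9), and Ndufaf4, a partner of Ndufaf3 (17.1 to 29.5 against 41.4 to 184). Ndufaf3, which acts early in assembly of the quinone module, was at 34.0 to 50.5 CPM against 105 to 176. Ndufaf7, a methyltransferase that acts in assembly, was the only assembly factor with a higher mean in the 3 libraries, at 18.6 to 28.9 CPM against 0.981 to 38.4. In controls it was lower in the light zone without overlap, but edgeR, DESeq2 and limma-voom did not call it. Under treatment the zones overlapped. The part of zone in the higher mean was not tested. Of the 3 libraries 2 are from the dark zone. Those 2, at 18.6 and 28.9 CPM, lay within the dark zone controls (12.3 to 38.4). The light zone library, at 20.9 CPM, was above the light zone controls (0.981 to 8.89) but below light zone treated replicate 3 (28.0).

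Transcript length went along with these differences. The supernumerary subunits had a median transcript length of 704 bases, the assembly factors 1273 and the core subunits 1312, against 2858 for all tested genes with a length. All 26 genes with transcripts under 1000 bases and all 11 from 1000 to under 1500 bases had lower means in the 3 libraries, with medians of -2.07 and -1.49. Of the 8 genes with 1500 bases or more, 4 were lower and 4 higher (median -0.10). Ndufab1 and Ndufaf4, with the longest transcripts, were among the lower ones. Over all tested genes with a length, 79.8% of those under 1000 bases were lower (median -1.24), 56.0% of those from 1000 to under 1500 (-0.29) and 32.4% of the longer ones (0.74). In each length class the median of the complex I genes was below that of all tested genes. Across the 45 genes length and difference had a Spearman rho of 0.536 and a Pearson r of 0.469 (log2 length), and across 11288 genes 0.172 and 0.183, where all points share the same 12 libraries and genes are not independent. For the other 3 treated libraries against the 6 controls these values were 0.284 and 0.242 for the 45 genes and -0.0389 and -0.0278 for all. The part of transcript length in the differences was not tested beyond the length-adjusted fit.

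**Figure D4:**
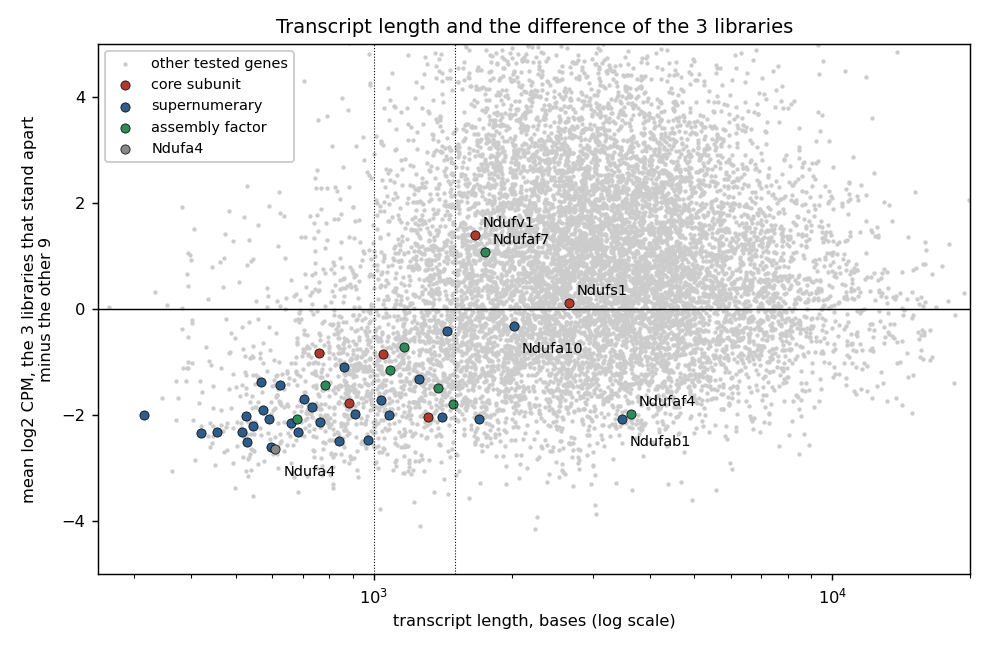
Transcript length (log axis) against the mean log2 CPM of the 3 libraries that stand apart minus that of the other 9, for complex I genes by role and for other tested genes (grey, 132 of 11288 outside the axes), with dotted lines at 1000 and 1500 bases. Complex I genes under 1500 bases all lie below 0, and Ndufv1, Ndufaf7 and Ndufs1 lie above it.

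Markers of other spleen cells also differed in the 3 libraries. The 8 macrophage markers summed to 69.6 to 174 CPM there and to 5.80 to 43.8 CPM in the 9 others. Of the 8, 5 were above all 9 (13.7% of all tested genes were). By group, dark zone sums were 7.54 to 17.2 CPM in control and 8.25 to 75.8 CPM in treated libraries, and light zone sums 5.80 to 43.8 and 19.4 to 174 CPM. C1qb, a complement gene of macrophages, was at 11.1 to 35.8 CPM against 0 to 0.0585 CPM. The sum of the 7 T cell markers overlapped (15.8 to 53.5 CPM against 6.03 to 64.5), but 4 of the 7 were above all 9 libraries (13.7% of all tested genes were). These were Cd3e (2.61 to 10.6 against 0.658 to 1.99 CPM), Cd4, Cd8a and Icos. The 2 erythroid genes overlapped (33.8 to 150 against 0.327 to 754). The sum of the 3 neutrophil markers overlapped too (1.03 to 48.3 against 0 to 2.17 CPM). S100a8, at 0 counts in the 9, and Ngp were above all 9 libraries (13.7% of all tested genes were). In dark zone treated replicates 1 and 2 S100a8 was at 7.83 and 14.8 CPM and Ngp at 7.79 and 18.9. In light zone treated replicate 2 they were at only 0.0776 and 0.233 CPM. That S100a8 value equals the 3-count limit of its library and cannot be told from 0. The natural killer marker found, Nkg7, was at 1.64 to 6.98 CPM against 0.927 to 2.42. The 4 plasma cell markers summed to 1280 to 2400 CPM against 6430 to 11500, nearly all of it Jchain (1109 to 2154 against 6206 to 11320), while Xbp1 (133 to 238 against 28.9 to 225), Sdc1 and Prdm1 overlapped. These sums are small beside the germinal center B cell markers except for the plasma cell list, and their part in the complex I differences was not tested.

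In dark zone cells, treated were compared with control libraries to describe what blocking T cell help does to the complex I genes. With all 12 libraries 40 of the 45 genes were lower under treatment and 5 higher, with a median log2 difference of -1.15, against 0.06 over all tested genes. The median was -1.22 for the supernumerary subunits (27 of 29 lower), -0.61 for the assembly factors (7 of 8 lower) and -0.09 for the core subunits (5 of 7 lower). With library totals as the only scaling the medians were -0.85 and 0.51, and Ndufaf1, Ndufs1 and Ndufs3 turned from lower to higher. Relative to all tested genes the complex I median was -1.21 under TMM and -1.36 under library totals. No gene passed by edgeR or DESeq2. EdgeR's quasi-likelihood test with Benjamini-Hochberg adjustment called 0 of the 45 at an adjusted p under 0.05 (0.0% of all tested genes). The smallest edgeR adjusted p among the 45 was 0.528, and 10 had an unadjusted p under 0.05. The share of all tested genes at that unadjusted cut is not given here, so these 10 are not read as an excess. DESeq2 also called 0 of the 45 (0.596% of all tested genes).

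The smallest p-values among the lower genes were those of 3 supernumerary subunits. Ndufa6, a matrix arm subunit of the LYR protein family, was at 544, 669 and 457 CPM in dark zone controls and 134, 108 and 351 after treatment, and at 641, 492 and 458 in light zone controls and 403, 102 and 391 after treatment. Its treated libraries all lay below the dark zone controls, replicate 3 by far less than replicates 1 and 2, and the log2 difference was -1.49 (SE 0.56, edgeR adjusted p = 0.528). Ndufa5, part of the quinone module, had 286, 394 and 210.2 CPM in control and 45.8, 39.7 and 167 in treated dark zone libraries, against 359, 274 and 242 in control and 264, 41.4 and 188 in treated light zone libraries. The log2 difference was -1.82 (SE 0.70, edgeR adjusted p = 0.528), again without overlap. Ndufb10, in the membrane arm, was at 801, 831 and 377 CPM in dark zone controls and 164, 163 and 419 after treatment, and at 583, 595 and 485 in light zone controls and 521, 126 and 408 after treatment. For Ndufb10 the groups overlapped, with dark zone treated replicate 3 above control replicate 3, and the log2 difference was -1.43 (SE 0.56, edgeR adjusted p = 0.528). Of the higher genes, Ndufv1 differed by 0.76 (SE 0.60, edgeR adjusted p = 0.618) and Ndufa9 by 0.30 (SE 0.57, edgeR adjusted p = 0.847). Treated and control libraries did not overlap for 15 lower genes (33.3%, against 11.2% of all tested genes) and for 1 higher gene (2.22%, against 12.5%).

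Without the 3 libraries the dark zone difference was much smaller. The median over the 45 genes was -0.23, against -0.11 over all tested genes, with 34 lower and 11 higher, and 26 of the 29 supernumerary subunits were still lower (median -0.30). Ndufv1 then differed by -0.50 in place of 0.76. A single dark zone treated library, replicate 3, stands for the group there, assumed to vary like the others, and edgeR and DESeq2 called 0 of the 45. Without replicate 3 instead, the median with all other libraries was -1.94. Limma-voom with a quality weight per library called 34 of the 45, all lower (25.4% of all tested genes, 15.6% called lower). These were 27 supernumerary subunits, Ndufv2, Ndufs8, Ndufa4 and 4 assembly factors, by -2.58 (Ndufa5, limma adjusted p = 0.00148) to -0.89 on the log2 scale, the largest adjusted p among them being 0.0351. Among the other 11 were Ndufa10, Ndufa9, Ndufs1, Ndufv1 and 4 assembly factors (Ndufaf1, Ndufaf5, Ndufaf6 and Ndufaf7). This fit weighted dark zone treated replicates 1 and 2 by 4.70 and 5.43 and replicate 3 by 0.237, so 2 of the 3 libraries that stood apart carried most of the weight of the treated group. With the length trend of each library taken into account, the 12-library median was -0.47 (all tested genes -0.19) and edgeR called 0.

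**Figure D5:**
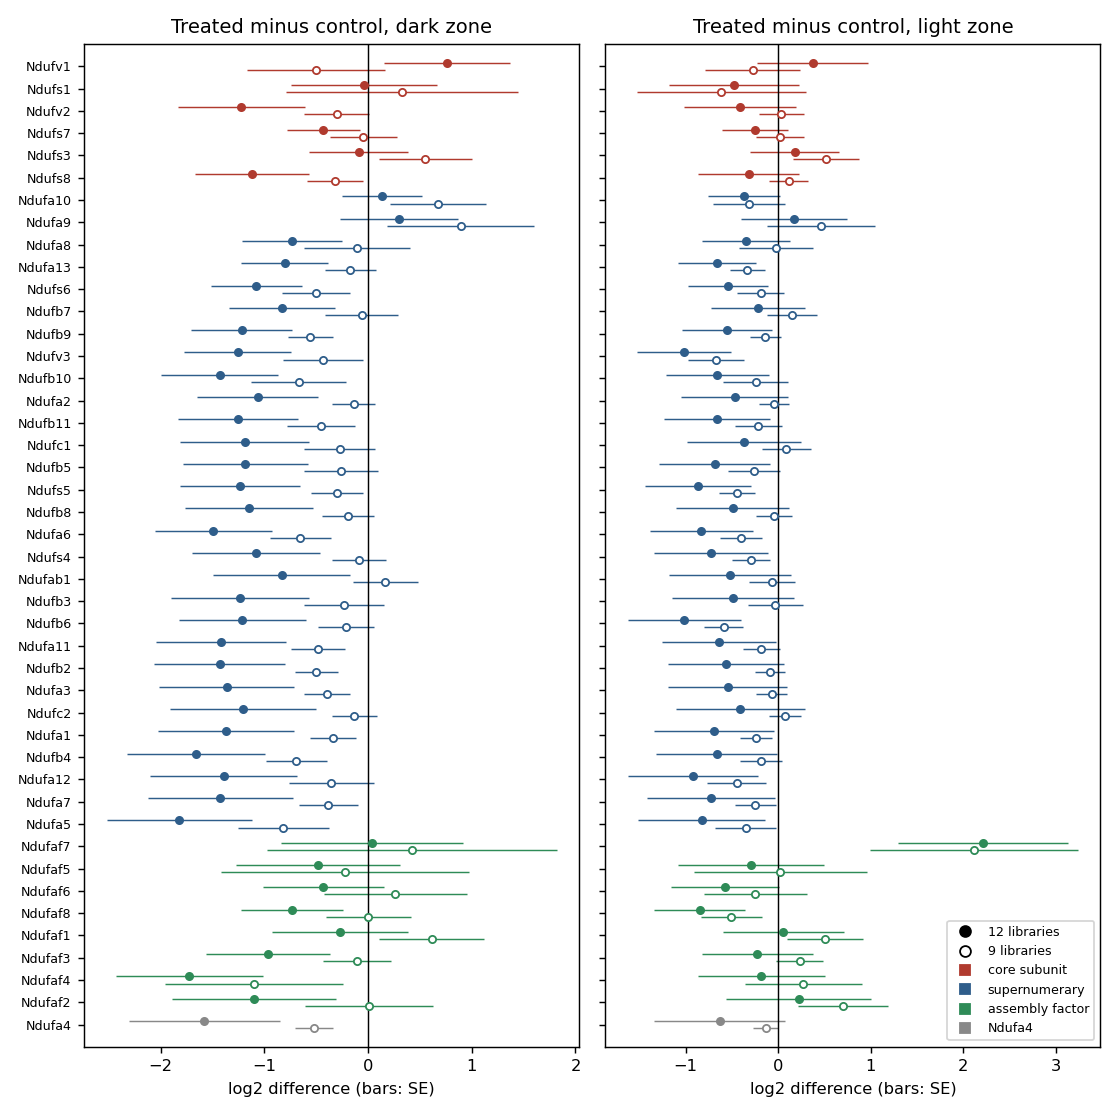
EdgeR log2 differences with SE of treated minus control libraries for 44 complex I genes in the dark zone (left) and light zone (right), from all 12 libraries (filled) and from the 9 without those that stand apart (open). Over all 45 the dark zone medians are -1.15 and -0.23, the light zone medians -0.52 and -0.14, and Ndufv1 changes side in both zones.

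In light zone cells the treated libraries had lower means for 38 of the 45 genes and higher means for 7, with a median log2 difference of -0.52, against 0.10 over all tested genes. The supernumerary subunits had 28 of 29 lower (median -0.64), the assembly factors 5 of 8 (-0.20) and the core subunits 4 of 7 (-0.25). With library totals alone no gene of the 45 changed direction, and the medians were -0.40 and 0.39. EdgeR called 0 of the 45 (0.0% of all tested genes), with 1 at an unadjusted p under 0.05, DESeq2 0 (1.79% of all tested genes) and limma-voom with quality weights 0. The shares of all tested genes at that cut and by limma-voom are not given here, so this 1 is not read as an excess. That 1 gene was Ndufaf7, at 0.981, 1.95 and 8.89 CPM in control and 6.03, 20.9 and 28.0 CPM in treated libraries. Its groups overlapped, and the log2 difference was 2.21 (SE 0.92, edgeR adjusted p = 0.674).

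The lower genes with the smallest p-values were the supernumerary subunits Ndufv3, next to the NADH site (log2 difference -1.02, SE 0.51, edgeR adjusted p = 0.687), and Ndufb6, in the membrane arm (-1.01, SE 0.61), and Ndufaf8, a partner of Ndufaf5 (-0.85, SE 0.49). Ndufv1 (0.37, SE 0.60) was again on the higher side. The groups did not overlap for 8 lower genes (17.8%, against 5.49% of all tested genes) and for 0 higher ones (5.82%). Without the 3 libraries the median was -0.14, against -0.04 over all tested genes, with 30 genes lower and 15 higher and 0 called by edgeR or DESeq2. Leaving out light zone treated replicate 2 alone gave -0.14, and leaving out replicate 1 gave -0.80. With the length trend of each library taken into account the 12-library median was -0.23 (all tested genes -0.01). Without the 3 libraries Ndufaf7 differed by 2.11 and Ndufv1 turned to -0.28.

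The treatment differences of the zones were set against each other in the same fit. The light zone difference was above the dark zone one for 38 of the 45 genes, with a median of 0.59 on the log2 scale, against 0.15 over all tested genes. EdgeR called 0 of the 45 (0.0% of all tested genes, smallest adjusted p = 0.9999) and 0 at an unadjusted p under 0.05. DESeq2 called 0 (0.132%) and limma-voom with quality weights 0, whose share of all tested genes is not given here. The assembly factors Ndufaf7 (2.17, SE 1.26), Ndufaf4 (1.54, SE 0.98) and Ndufaf2 (1.32, SE 1.11) led the higher side and Ndufa10 (-0.51, SE 0.55), Ndufv1 (-0.39, SE 0.85) and Ndufs1 (-0.44, SE 0.99) the lower. With library totals alone Ndufa13, Ndufaf5 and Ndufs7 changed direction. The dark zone had 2 of the 3 libraries that stood apart and the light zone 1, and without them the median was 0.20 (all tested genes 0.10). It was 1.34 without dark zone treated replicate 3 and 1.02 without light zone treated replicate 2. Leaving out any 1 of the other treated libraries brought it to 0.33 to 0.37. With the length trend of each library taken into account it was 0.26, and 0.26 over all tested genes.

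Between the zones of untreated mice the differences of the complex I genes lay on both sides of 0. In controls 18 of the 45 genes were higher in the light zone and 27 lower, with a median log2 difference of -0.04 (all tested genes 0.00145). None of the 3 libraries is a control. The SEs and p-values below still come from the fit of all 12 libraries, where the groups share 1 estimate of the spread. They therefore do not measure the spread of controls alone. In the fit without the 3 libraries 19 were higher and the median was -0.02, and by limma-voom with quality weights 26 were and it was 0.04. With the length trend of each library taken into account it was -0.08 (all tested genes 0.02). With library totals alone Ndufb5 changed direction. The median changed sign without dark zone control replicate 2 (0.09) and was -0.17 without replicate 3 and -0.11 without light zone control replicate 1. EdgeR called 0 of the 45 (0.0% of all tested genes), with 1 at an unadjusted p under 0.05, DESeq2 0 (0.935%) and limma-voom with quality weights 0. The shares of all tested genes at that cut and by limma-voom are not given here, so this 1 is not read as an excess. That 1 gene was Ndufaf7, whose dark zone levels were 30.5, 12.3 and 38.4 CPM and whose light zone levels were 0.981, 1.95 and 8.89 CPM. The log2 difference was -2.77 (SE 0.94, edgeR adjusted p = 1), and the light zone values rest on 15 or more counts. By DESeq2 the log2 difference was -2.785, with a DESeq2 adjusted p of 0.0746, above the threshold of 0.05. Only Ndufaf7 and Ndufaf2 (-0.73, SE 0.79) did not overlap between the zones, both lower in the light zone (5.6% of all tested genes were), and 0 genes were higher (4.47%). The higher genes of smallest p were Ndufs7 (0.38, SE 0.35), Ndufaf5 (0.53, SE 0.79) and Ndufaf8 (0.31, SE 0.49), and Ndufv1 (-0.38, SE 0.60) was the third on the lower side.

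Among treated libraries 39 of the 45 genes were higher in the light zone, with a median log2 difference of 0.55 (all tested genes 0.05). Without the 3 libraries 29 were higher and the median was 0.10 (all tested genes 0.09). With library totals alone Ndufa8, Ndufaf8 and Ndufv3 changed direction, and the medians were 0.30 and -0.13. EdgeR called 0 of the 45 (0.0% of all tested genes), with 1 at an unadjusted p under 0.05. DESeq2 called 0 (0.00828%) and limma-voom with quality weights 0. By limma-voom the median was 1.396 (all tested genes -0.35) and the smallest limma adjusted p 0.0638. That fit weighted dark zone treated replicates 1 and 2 by 4.70 and 5.43. The shares of all tested genes at the unadjusted cut and by limma-voom are not given here. The 1 gene is therefore not read as an excess. That 1 gene was the assembly factor Ndufaf4, at 17.1, 27.6 and 46.5 CPM in dark zone and 177, 29.5 and 96.4 CPM in light zone libraries, with a log2 difference of 1.73 (SE 0.71, edgeR adjusted p = 1). Ndufb2 (0.9995, SE 0.63) and Ndufs7 (0.55, SE 0.35) followed, and Ndufv1 (-0.77, SE 0.60), Ndufs1 (-0.62, SE 0.70) and Ndufa10 (-0.26, SE 0.39) were lower in the light zone. None of the 45 genes separated the zones without overlap, where 3.55% of all tested genes were lower and 2.24% higher. The median was 1.34 without dark zone treated replicate 3 and 0.997 without light zone treated replicate 2. It was 0.25 to 0.31 without any 1 of the other 4. With the length trend of each library taken into account it was 0.19, against 0.20 over all tested genes.

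Genes around complex I were read from lists of known function. Of 13 listed symbols of other complex I assembly genes 10 were found (Tmem261 under this older symbol, not as Dmac1), and their summed level was 313 to 382 CPM in the 3 libraries against 798 to 1180 in the 9. Tmem126a, Tmem126b and Tmem261, which act in assembly of the membrane arm, were below all 9 and none was above. Of all tested genes 16.7% were below in this way and 13.7% above. In the dark zone 7 of the 10 were lower under treatment (median -0.54, and -0.50 without the 3 libraries) and in the light zone also 7 (-0.50, and -0.36 without), with 0 called by edgeR. In the dark zone Tmem126b was at 82.7, 106 and 118 CPM in control and at 13.2, 10.9 and 19.5 CPM in treated libraries. So dark zone treated replicate 3 was also below the controls for this gene, whose log2 difference was -2.81 (SE 0.65, edgeR adjusted p = 0.528).

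Complex II, the succinate dehydrogenase that feeds the same quinone pool, was also mostly lower in the 3 libraries. Of its 8 measured genes 5 were below the other 9 libraries in the 3 and none above (16.7% and 13.7% of all tested genes were). Its summed levels were 840 to 1090 against 2000 to 2790 CPM. Sdha, its flavin subunit, was at 146 to 202 CPM in the 3 and 48.3 to 150.5 in the 9, and the assembly factor Sdhaf4 at 31.5 to 44.4 against 297 to 572. In the dark zone 7 of 8 were lower under treatment (median -0.49), but without the 3 libraries 2 of 8 were (0.35), and in the light zone the medians were -0.17 and 0.13. None was called by edgeR. The 11 measured regulators of nuclear respiratory genes summed to 242 to 263 CPM in the 3 and 291 to 467 CPM in the 9. Nrf1 was at 0.803 to 28.7 CPM and Gabpa at 20.0 to 116 CPM over the 9. In each zone 7 of the 11 were higher under treatment (medians 0.22 and 0.39), with 0 called by edgeR. Without the 3 libraries 8 were higher in the dark zone (median 0.34) and 6 in the light zone (0.21). Of these 11, Pprc1, a coactivator of NRF1, was the one above all 9 libraries in the 3 (21.2 to 28.6 against 3.54 to 11.7 CPM). With 13.7% of all tested genes above in this way, 1 of 11 is not read as an excess. The 7 complex I subunits encoded in mitochondrial DNA were looked for as mt-Nd1 to mt-Nd6 and mt-Nd4l. None was among the deposited symbols under these names, so they could not be analysed.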

How the data were processed

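Values were deposited by the authors in the unit of expected counts for each symbol, whole or midway between whole numbers, without normalization. BWA and mm10 are named per the submitters' processing notes, while the BWA version, counting program and annotation are not stated there. Midway values were rounded up and blanks read as 0, and 7 of the 45 genes held midway values. Exons of 15 genes overlap another coding gene and 8 have near-identical pseudogene copies (at least 95% over 200 bases, blastn 2.17.0), so their reads can be shared; the kits do not mark strand.

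Genes were tested with edgeR 4.0.16 (R 4.3.3) using robust quasi-likelihood tests, TMM and filterByExpr (minimum count 10, total 15), with 12 libraries in 1 fit, a term per group and 5 contrasts. P-values were two-sided, adjusted by Benjamini-Hochberg over 12081 genes (threshold 0.05), and scripts were tested on simulated data. DESeq2 1.42.0 and limma 3.58.1 voom with quality weights were alternatives, besides other scalings, no filter, fewer libraries, replicate blocks and offsets for a lowess trend (span 0.3) on transcript length. SE is the absolute log2 difference over the square root of F. The limit that a count of 0 allows, 3 counts, equals 0.0776 to 0.206 CPM and covers counting error only, since no molecular identifiers were used. Lengths are medians over RefSeq-supported GENCODE M21 coding transcripts (mm10).

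Members and lists were chosen with earlier results of these data known. Log2 differences with SE are printed, per comparison, for the 3 higher and 3 lower members of smallest unadjusted p, and members passing by voom alone are given by their range. Values of each library are printed for core subunits, those 6 members in the dark zone and the 5 of highest CPM per kb, and other values to describe a role. Of the 45 genes 1 stays in the fits, counts and sums, and its own values are not reported here, so some of these sets of 3 are short by 1.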

Additional observations from a re-analysis of the deposited data

How the results depend on the processing

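Of 294 alternative values of the medians and counts, 273 kept their direction and stayed within the limits used. These limits were 1 within-group SD of 0.687 log2 for medians and 1.5 times for counts. The SD includes the 3 libraries that stood apart. It exceeds the move of the light zone treatment median from -0.52 to -0.14 without them. The 273 therefore do not show that the medians were unaffected by these libraries. No alternative called a complex I gene except limma-voom with quality weights, which called 34 in the dark zone. For dark zone treatment the median was -0.23 without the 3 libraries that stood apart (-0.26 by DESeq2, chosen after seeing the data) and -1.94 to -0.87 leaving out 1 library at a time. The number of higher genes was 8 with library totals, 11 and, by DESeq2, 9 without the 3, 2 by voom and 2 to 8 leaving out 1. For light zone treatment it was 15 without the 3 by either tool, 13 with length offsets and 11 with these and the block, and 4 to 15 leaving out 1. The median difference between zones in treatment effect was 1.33 by voom and 0.33 to 1.34 leaving out 1. Between treated zones the median was 1.396 by voom and 0.25 to 1.34 leaving out 1, and in controls 13 to 30 genes were higher leaving out 1. With the replicate block the treatment medians were -1.35 and -0.66, and 0 genes were called. Whether the numbers pair the samples was not decided. In controls, deviations from group means correlated between zones at 0.0291, -0.00311 and 0.116 for same-numbered libraries and -0.0764 to 0.0411 for the rest. Under treatment these values were -0.307, 0.539 and 0.295 for equal numbers and -0.588 to 0.56 for unequal ones. Their sign was positive where both or neither library stood apart and negative otherwise, whatever the number, so they cannot show pairing or its absence.

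Of 548 alternative values of single genes 13 reversed. Ndufv1 was at -0.50 (DESeq2 -0.53) in the dark zone, -0.28 (-0.27) in the light zone and 0.23 (0.26) between these without the 3, at -0.14 by voom in the light zone, and at -0.29 to 0.74 there and -1.06 to 0.028 between them leaving out 1. By voom Ndufa9 was at -0.070 in the dark zone and Ndufa10 at 0.023 between treated zones. Leaving out 1, Ndufa9 was at -0.11 to 0.60 and Ndufa10 at -0.61 to 0.093. The cause was not tested. Depth limits Ndufaf7, whose lowest library holds 15 counts.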
